A study of Mus musculus with 51 samples.

Results

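The comparison described here sets *Eomes* KO cells against wild-type (WT) cells on day 2 of differentiation with Bmp4. Both are F1G4 mouse ES cells that were freed of feeder cells, aggregated in hanging drops and differentiated with 20 ng/ml Bmp4 into early mesoderm. WT cells carry no engineered deletion, and *Eomes* KO cells were made from them by deleting the promoter and the first exon of *Eomes* with a Cas9(D10A) nickase and picking single clones. The wider study has 18 RNA-seq samples by their labels, among them a WT time course and *T* KO, *Eomes*/*T* double KO (dKO) and *Smad4* KO cells, all with the same dose of Bmp4 once differentiating. The WT cells of the *Smad4* line are not F1G4 cells and carry *Smad4* alleles whose first exon lies between loxP sites. How many clones and cultures stand behind the *Eomes* KO values is not given in the sources used here.

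Each gene has 1 deposited value per group, in FPKM (fragments per kilobase, a level scaled to transcript length and library size). The labels give 2 WT samples and 1 *Eomes* KO sample for day 2, while legends in the study speak of 2 averaged replicates. No spread between replicates could therefore be computed, no difference below has a replicate check, and the depth of each sample is unknown. Genes above an FPKM of 1 in WT or KO cells were examined, 11226 of 24538. The log2 ratio of KO over WT was taken after adding 0.1 to both values, which understates the change of low genes. A gene is called lower below −1 and higher above 1. A pooled value of a culture cannot tell fewer cells of a type from less RNA per cell.

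Eomes is a T-box transcription factor that is switched on in the epiblast at the onset of gastrulation, downstream of Nodal signalling. In the primitive streak it is known for driving the exit from pluripotency, cardiac mesoderm and definitive endoderm. The related T-box factor T (Brachyury) marks the streak more widely and is needed for posterior mesoderm. Together they are known to hold back neural gene expression in the early mesoderm.

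The guides are printed because they fix which part of *Eomes* the KO cells lack. Each guide is given 5′ to 3′ in lower case, followed in capitals by the PAM (the bases next to the target that Cas9 needs) as read from the GRCm38 (mm10) genome.
guide 1: acatggtctacccacggcatAGG
guide 2: tccggcgccatagagccaccGGG
guide 3: tcacgtagatctgccctcaaGGG
guide 4: ggtttgcagcaggcgatttgTGG

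Guides 1 (chr9:118477880-118477899, minus strand) and 2 (chr9:118477922-118477941, plus strand) lie upstream of the *Eomes* gene, which runs on the plus strand from chr9:118478186-118486132. Guides 3 (chr9:118479771-118479790, minus strand) and 4 (chr9:118479805-118479824, plus strand) lie in its first intron. Exon 1 (chr9:118478189-118479546) falls inside the 1945 bases between the outermost guide bases, and exons 2 to 6 fall outside. Exon 1 makes up 37.1% of the transcript and 42.9% of its coding bases, so 62.9% of the transcript could still give reads in a cell with the deletion.

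*Eomes* had an FPKM of 9.42 in WT and 2.42 in KO cells, a log2 ratio of −1.92. The KO column thus kept a low value on day 2, close to the 2.38 of WT cells on day 1 in the time course. On day 3 the values were 20.3 in WT and 0.276 in KO cells. In the dKO on day 2, which was made from *Eomes* KO cells, *Eomes* had a log2 ratio of −2.83 against the same WT samples. The paper reports that RT-PCR and western blots of differentiated KO cells found neither *Eomes* transcript nor Eomes protein. The gene-level value used here does not separate exon 1 from the other exons, and the part of each in the remaining signal was not tested.

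*T* had 43.1 in WT and 22.3 in KO cells, which at −0.94 lay just short of the call. When columns were rescaled to TPM (a common total for all genes) this value passed the call, at −1.16. Against the WT cells of the *Smad4* line, an independent line on day 2 with an FPKM of 26.6, the log2 ratio was −0.25. On day 3 *T* stood at 334 in WT and 4.46 in KO cells. Of 11 T-box factors 4 were examined, and *Tbx3* (3.33 and 2.51) and *Mga* (22.7 and 22.9) were not called.

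In all, 424 genes were lower (3.78%) and 358 higher (3.19%) in *Eomes* KO cells, with a median log2 ratio of −0.01 over examined genes. Among 10872 protein-coding genes 398 were lower (3.66%) and 242 higher (2.23%). Calls concentrated in genes of low expression. Of 2110 genes with an FPKM of 1 to 3 in the higher column, 16.0% were past the fold in either direction, against 3.69% of 2985 genes at 10 to 30.

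**Figure D1:**
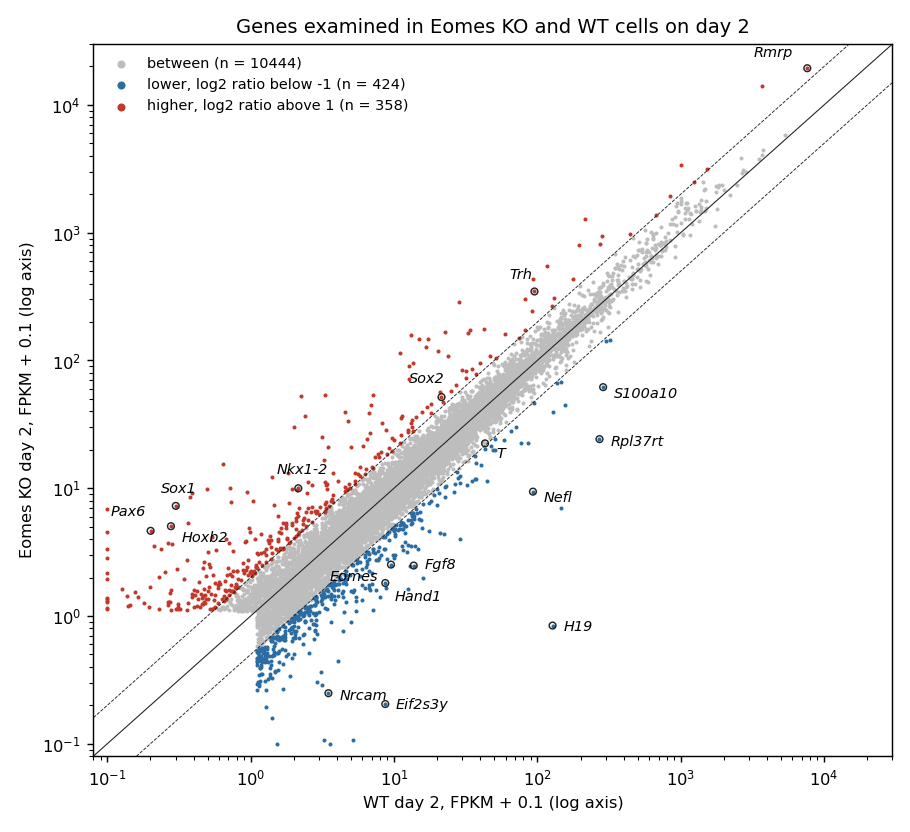
FPKM + 0.1 of each of 11226 examined genes in WT (x axis) and *Eomes* KO cells (y axis) on day 2, both on log axes, with 424 lower genes in blue, 358 higher genes in red and dashed lines at a log2 ratio of −1 and 1. Named genes are circled; *T* sits just inside the lower dashed line, and *Rmrp* at the upper right is the short RNA with the highest KO value.

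The WT columns of both lines served as a scale for differences between cultures with no KO, though the *Smad4* line carries the loxP-flanked alleles. Between them 4.45% of 11117 genes were past the same fold, against 6.97% between *Eomes* KO and WT cells. This scale includes the difference between the lines and shares the F1G4 WT samples with the comparison. At an FPKM of 1 to 3 the shares were 16.0% for KO against WT and 11.7% for WT against WT, and at 3 to 10 they were 7.15% and 4.54%. Above 100 they were 5.21% and 1.14%, and in KO against WT 37 genes at that level were higher and 10 lower. Of the 424 lower genes 195 (46.0%) were above the limit of 1 in WT alone, and of the 358 higher genes 156 (43.6%) in KO cells alone, so their direction follows in part from the limit.

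**Figure D2:**
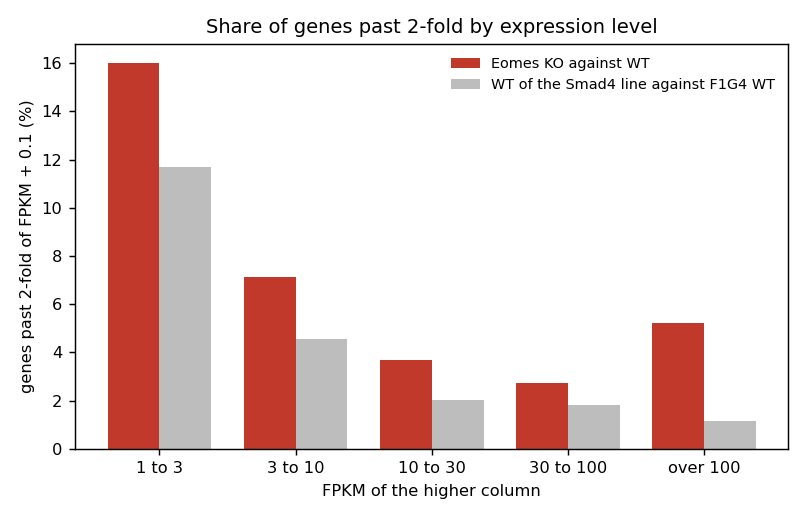
Share of genes past the fold (log2 ratio of FPKM + 0.1 beyond −1 or 1, in %) in 5 ranges of FPKM of the higher column, for *Eomes* KO against WT (red) and for WT of the *Smad4* line against F1G4 WT (grey). The red bars are the taller ones in each range, at 16.0% and 11.7% for the lowest range and 5.21% and 1.14% for the highest.

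Each called gene was also set against the WT cells of the *Smad4* line, a choice made after the values were seen. Of the 424 lower genes 239 (56.4%) were also below −1 against that column and 4 were above 1. Of the 358 higher genes 280 (78.2%) were also above 1 and 3 were below −1. Of all 11171 genes examined against that line 503 were lower and 707 higher. Both ratios use the same KO column, by which the genes were chosen, so part of this agreement was built in. The agreement without any difference was not computed, so these counts are no independent check. Values of this second WT column stand beside some of the main ones below. Among the called genes named below that were within the fold against it are *Zeb2* (0.51), *Fgf15* (0.41), *Shisa2* (0.59), *Nid1* (−0.46), *Lamb2* (−0.32), *Ndrg1* (−0.37), *Ascl2* (0.09) and *Igf2* (−0.67).

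The 15 protein-coding genes with the lowest ratios, among those with an FPKM of at least 5 in the higher column, held genes of several kinds. *Nefl*, a neurofilament subunit, stood at 93.1 in WT and 9.30 in KO cells (log2 −3.31), with 193 in WT of the *Smad4* line. *S100a10*, which binds annexin A2, went from 287 to 61.7 (−2.22), with 299 in the other WT line. Both WT lines were thus well above the KO cells for these abundant transcripts.

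*Sfmbt2*, a Polycomb-group gene known for its role in the trophoblast, had 12.5 in WT and 1.52 in KO cells (−2.96). *Plac8* had 20.9 and 4.36 (−2.23). The homeobox genes *Rhox6* (28.9 and 3.88) and *Rhox9* (12.8 and 2.36) lie next to each other on the X chromosome and share sequence, so reads may be split between them. With *Rhox5* (17.3 and 4.50), all 3 examined *Rhox* genes were lower, where 3.78% of all genes were. *Rhox6* and *Rhox9* are named here for their low ratios, so this count is not independent of that choice. *Sfmbt2*, *Plac8*, *Rhox6* and *Rhox9* were at or above WT level again on day 3 or within 0.06 of it, with log2 ratios of 0.20, −0.06, 0.41 and 0.44.

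*Fgf8*, an FGF ligand of the primitive streak, had 13.6 in WT and 2.38 in KO cells, with 19.8 in WT of the *Smad4* line and a day 3 log2 ratio of −5.43. *Hand1*, a transcription factor of lateral and extraembryonic mesoderm, had 8.59 and 1.71 (−2.26), and against the other WT line, at 3.50, it lay at −0.99. *Rtl8c*, on the X chromosome, had 5.92 and 1.22 (−2.19) and stayed lower on day 3 (−3.01). *Jdp2*, a partner of the AP-1 factors, had 7.86 and 1.31 (−2.49), and *Chac1*, which degrades glutathione and is a target of Atf4, 8.70 and 1.55 (−2.41, and −1.62 against the other WT line).

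The remaining genes of the lowest 15 need care. *Rnaset2a* had 22.2 and 4.29, with a log2 ratio of −2.14 for its sum with the near-identical *Rnaset2b*, and its level in WT of the *Smad4* line was 7.38. *Rpl37rt*, a retrogene copy of *Rpl37*, had 271 and 24.1 while *Rpl37* had 442 and 981, and the sum of both was at 0.50. *Uty* (5.07 and 0.00686) and *Eif2s3y* (8.59 and 0.105) lie on the Y chromosome, as does *Ddx3y* (3.15 and 0.00761, named after its values were seen). All 3 examined Y genes were lower, and their median log2 ratio was −5.37 in *Eomes* KO cells on day 3, −5.51 in *T* KO and −5.51 in dKO cells on day 2. The summed FPKM of these 3 genes on day 2 was 16.8 in F1G4 WT, 0.119 in *Eomes* KO cells and 123 in WT of the *Smad4* line. The 2 WT lines thus differed widely as well. Whether the Y chromosome was present in the KO line, or in every F1G4 WT cell, was not tested.

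The 15 highest ratios were led by *Sox1*, a neural progenitor factor, with 0.200 in WT and 7.17 in KO cells (log2 4.60). *Csn3*, a casein gene, went from 0.267 to 5.24 (3.86). *Meis2*, a homeobox cofactor of Hox proteins, went from 3.16 to 16.6 (2.36), and *Pkdcc*, a secreted kinase, from 6.37 to 24.2 (1.91), though *Pkdcc* was at 17.5 in the other WT line. *Calca*, the calcitonin gene, had 11.2 and 36.4 (1.69). *Trh*, which encodes thyrotropin-releasing hormone, was the most abundant of the 15, with 95.4 in WT, 347 in KO cells (1.86) and 71.3 in the other WT line.

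The highest 15 also held *Tex19.1*, *Hormad1*, *Tcf15* and *Zfp534*, which were more abundant in WT cells of the ES state than in those of day 2. *Tex19.1*, *Hormad1* and *Syce3*, which act in meiosis or the silencing of retrotransposons in the germ line, went from 2.59 to 10.5, from 2.36 to 9.11 and from 0.624 to 7.64. Against the other WT line, at 0.498, *Hormad1* lay at 3.95. *Tcf15* and *Zfp534* went from 3.17 to 11.0 and from 8.65 to 28.7. In WT cells *Tex19.1*, *Hormad1*, *Tcf15* and *Zfp534* were at 40.6, 21.8, 35.6 and 61.1 in the ES state. The lists of naive pluripotency and germ cell precursor genes held no higher call, with medians of −0.41 and −0.72, though the naive median turned to 0.02 above an FPKM of 5 and to 0.12 against the other WT line. The KO values of *Tex19.1*, *Hormad1*, *Tcf15* and *Zfp534* on day 2 lay between the WT values of the ES state and of day 2. *Mael* (3.31 and 10.7) and *Dppa5a* (274 and 814), named after their values were seen, were higher as well.

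**Figure D3:**
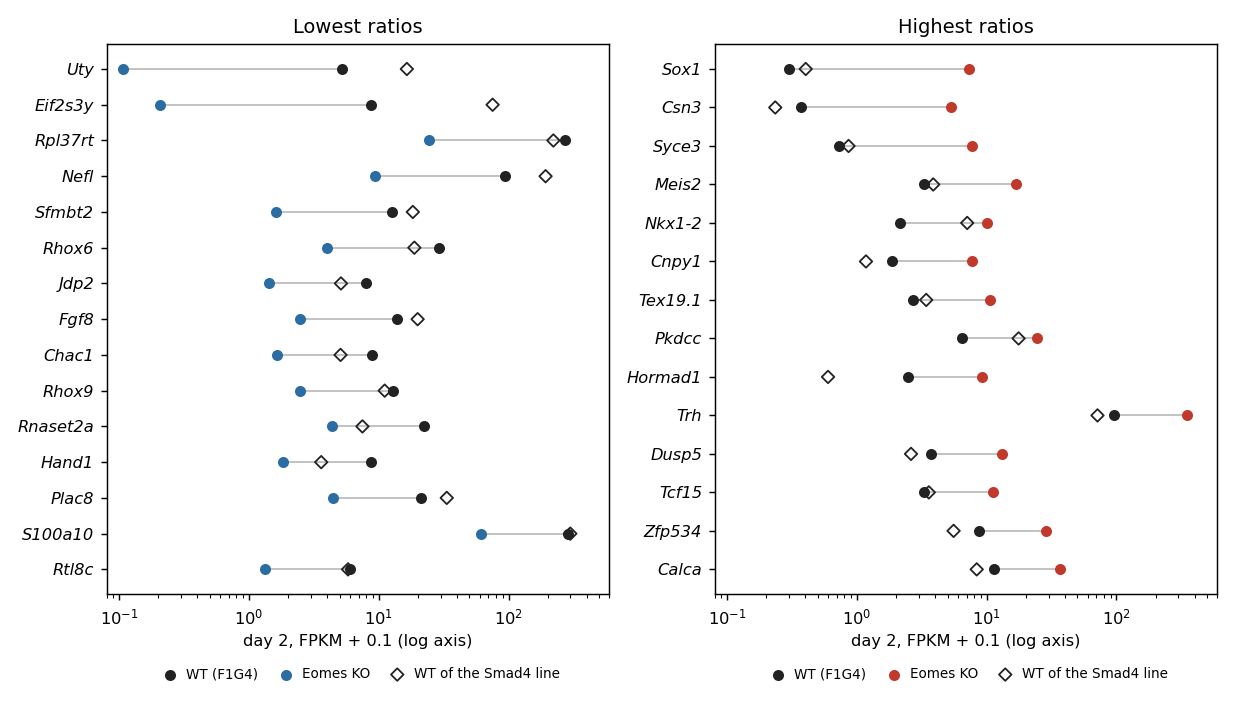
FPKM + 0.1 on day 2 (log axis) of the protein-coding genes with the lowest (left) and the highest (right) ratios that are reported here, in F1G4 WT (black), *Eomes* KO (coloured) and WT of the *Smad4* line (open diamonds). For *Hand1*, *Rnaset2a*, *Nkx1-2* and *Pkdcc* the open diamond lies within the 2-fold range of the KO value.

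The study names 13 genes as activated by Eomes on day 2. All 13 were lower and the median log2 ratio was −1.85, but the study chose them on these samples, so the count is not independent evidence of their direction. Of the 13 genes 7 passed the limit only through the WT column. Against WT of the *Smad4* line, with the same KO column, 8 of the 13 were below −1. Among all 424 lower genes 239 (56.4%) were, and among all 11171 examined genes 503. The 13 were chosen by this KO column too, so the share of all lower genes is the nearer scale. The 5 of the 13 that were not below −1 were *Hand1*, *Egr1* (−0.56), *Fos* (−0.08), *Jun* (−0.36) and *Atf4* (−0.48). *Nrcam*, a cell adhesion molecule, had 3.39 in WT, 0.149 in KO cells and 4.65 in the other WT line. Its log2 ratio of −3.81 was the lowest of the list with the pseudocount of 0.1. With a pseudocount of 1 it was −1.93, and *Fgf8* was lower, at −2.11. *Apln*, a secreted peptide of the apelin pathway, had 2.45 and 0.415, and *Fgf5*, an FGF ligand of the primed epiblast, 11.4 and 3.21. Both were lower still on day 3, at −5.78 and −4.45.

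The 11 genes that the study names as repressed by Eomes were all higher, with a median of 2.40, and the same caution holds. Against WT of the *Smad4* line, with the same KO column, 10 of 11 were above 1, and *Sox2* was at 0.55. Among all 358 higher genes 280 (78.2%) were above 1, and among all 11171 examined genes 707. *Pax6*, a neural and eye-field factor, had 0.100 in WT, 4.54 in KO cells and 0.378 in the other WT line. *Dlx6* went from 0.111 to 3.43, *Gbx2*, a hindbrain and epiblast factor, from 0.439 to 4.02, and *En2*, a midbrain factor, from 0.208 to 2.24. In WT of the *Smad4* line *Dlx6* was at 0.0265 and *En2* at 0.281, while *Gbx2* was at 1.46 and its log2 ratio against that line was 1.40. Of the 11 genes 9 passed the limit only through the KO column.

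Among 20 examined neural fate genes 9 were higher and none lower, where 3.19% of all genes were higher, with a median of 0.63 against −0.01 for all genes. Of the 9, *Sox1*, *Pax6*, *Gbx2*, *En2*, *Irx3* and *Tal2* (0.594 and 2.28) passed the limit only through the KO column, and the median was 0.26 both without an FPKM limit and above 5. Beside the genes above, *Irx3* went from 0.893 to 4.43, *Fgf15* from 2.35 to 5.00 and *Foxd3* from 2.58 to 5.33. *Irx3*, a posterior neural plate factor, was also higher on day 3, with 0.720 in WT and 18.3 in KO cells, while the median of the list was 0.04 on that day. Other neural genes did not move past the fold, such as *Sox11* (17.0 and 18.6) and *Nes* (26.1 and 25.5). Of 11 genes of the neural plate border and surface ectoderm, *Dlx6*, *Msx2* and *Id3* were higher, where 3.19% of all genes were, and the median was 0.43. Of these 3 genes 1 passed the limit only through the KO column. When columns were rescaled to TPM, 3 genes of this list were lower and 3 higher.

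Of 7 posterior and caudal genes 5 were higher, where 3.19% of all genes were, and their median was 2.22. Against the other WT line, with the same KO column, 4 were above 1, where 707 of 11171 examined genes were, and the median was 1.31. Of the 5 higher genes 4 passed the limit only through the KO column. *Cdx2*, a regulator of the posterior body and trophectoderm, had 0.610 in WT, 3.65 in KO cells and 0.635 in the other WT line, and *Nkx1-2*, a gene of the caudal epiblast, 2.05, 9.89 and 6.97. *Cdx1* went from 0.203 to 1.03. *Evx1* and *Fgf17* were not called.

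The examined *Hox* genes, a family chosen after its values were seen, had higher values in KO cells, but each of them passed the limit only through the KO column, so this direction was fixed by the limit. *Hoxb2* had 0.178 in WT and 4.94 in KO cells, *Hoxa5* 0.0633 and 1.32, *Hoxb1* 0.0436 and 1.12 and *Hoxa2* 0.0965 and 1.07. In the WT time course *Hoxb2* was at 0.101 on day 1 and 5.95 on day 3. The KO value of *Hoxa2* on day 2 was above that of WT on day 3, those of *Hoxb1* and *Hoxb2* were below, and *Hoxa5* was at 0.0190 in WT on day 3. *Hoxb2* was also higher in *T* KO (2.17) and dKO cells (6.35) on day 2, which were set against the same WT samples.

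On day 3 the order of the posterior genes turned. *Cdx2* was at 7.58 in WT and 0.439 in KO cells, *Nkx1-2* at 10.1 and 2.52 and *Hoxb1* at 2.81 and 0.296. The median of the 7 genes was −2.11. The plot of levels by day shows the crossing of WT and KO lines for *Hoxb2* and *Cdx2*.

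**Figure D4:**
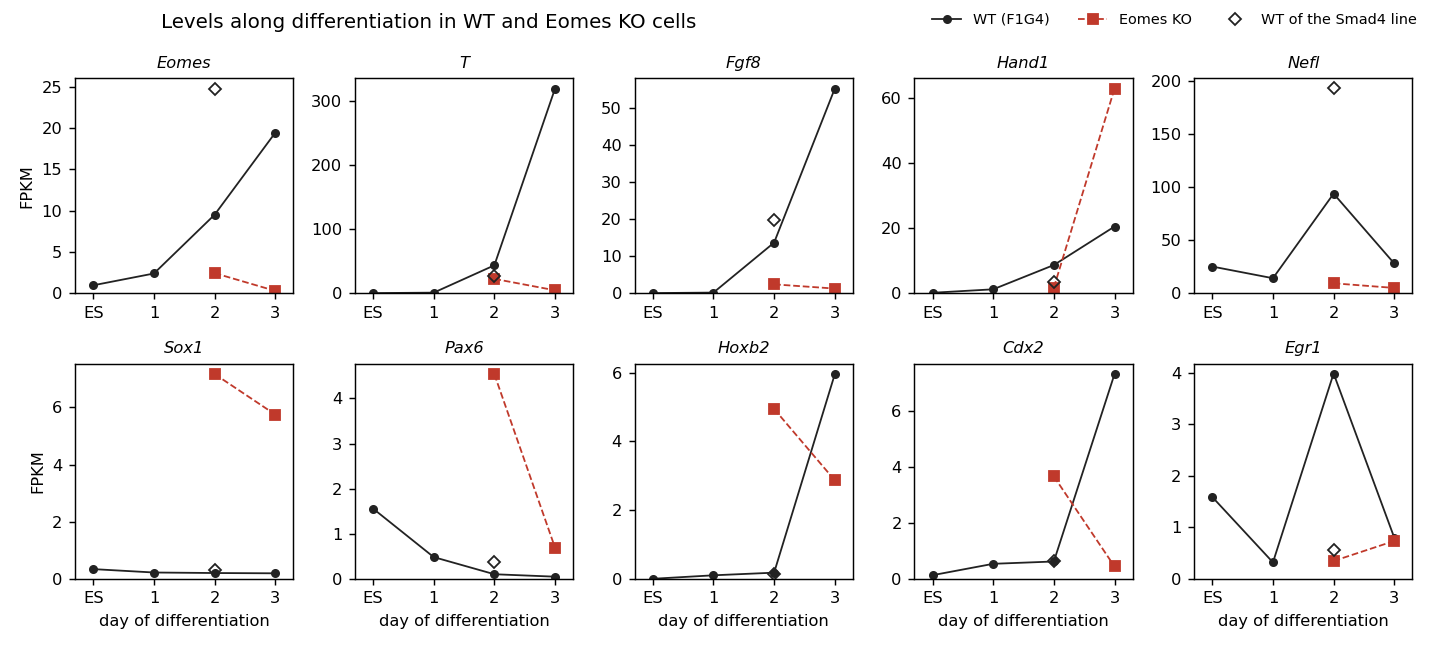
FPKM of 10 genes against the day of differentiation in F1G4 WT (black line, ES state to day 3), *Eomes* KO (red squares, days 2 and 3) and WT of the *Smad4* line (open diamond, day 2). *Fgf8* and *T* rose in WT from day 2 to day 3, and *T* went from 22.3 to 4.46 in KO cells, *Hand1* was lower in KO cells on day 2 and higher on day 3, and *Egr1* had a WT value of 3.97 on day 2 that stood above days 1 and 3.

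Regulators of the primitive streak and nascent mesoderm, apart from *Eomes*, were mixed on day 2. The 12 examined genes had a median of 0.13. Of them *Sp5* (2.21 and 0.606) and *Mixl1* (1.11 and 0.416) were lower and *Hoxb1*, *Cdx1* and *Zeb2* (0.550 and 1.33) higher, where 3.78% and 3.19% of all genes were. Each of these 5 passed the limit only through the column where it was high, so their direction was fixed by the limit. *Evx1* (3.47 and 3.80), *Wnt3* (16.3 and 13.5) and *Nodal* (31.9 and 26.3), which with *T* mark nascent mesoderm, were within the fold. Of the 6 markers used to check the labelled stage, these 3 and *T* were within the fold, and *Mixl1* and *Fgf8* were lower. On day 3 *Evx1*, *Wnt3* and *Nodal* were at −4.82, −3.08 and −1.94.

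Later mesoderm genes were mostly below the examination limit in both groups. Only 8 of 22 cardiac and lateral mesoderm genes were examined. *Nrcam*, *Apln*, *Hand1* and *Tgfb2* (1.16 and 0.352) were lower, while *Wt1* (0.334 and 1.74), *Msx2* (3.24 and 10.5) and *Tll1* (0.462 and 1.37) were higher, where 3.78% and 3.19% of all genes were. Of the 4 lower genes 3 passed the limit only through the WT column and of the 3 higher genes 2 only through the KO column, which fixed their direction. The median of −0.57 changed sign with other FPKM limits, to 0.07 without one and 0.34 above 5. Against the other WT line the same genes had a median of 0.21, and it was −0.99 when that column also decided which genes were examined.

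Ligands and targets of the signalling pathways moved unevenly. In the Nodal pathway *Lefty1*, a secreted Nodal antagonist, was higher and the 1 called gene of 16, where 3.19% of all genes were higher. *Lefty1* had 17.0 in WT and 43.4 in KO cells. *Lefty2* (29.8 and 32.6), the coreceptor *Tdgf1* (564 and 1051) and the partner of Smad2 *Foxh1* (29.7 and 31.9) were not called. On day 3 *Lefty1* was at −1.69.

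In the BMP pathway 4 of 17 genes were higher and 1 lower, where 3.19% and 3.78% of all genes were. The higher ones were the direct targets *Id1* (51.4 and 105), *Id3* (40.0 and 94.7), *Id4* (3.55 and 7.87) and *Msx2*, and *Id2* (62.4 and 104) was at 0.74. *Fst*, a secreted antagonist of activin and BMP ligands, was lower, at −1.11 with a KO value of 8.75. The receptors *Bmpr1a* (34.6 and 35.3) and *Bmpr2* (4.58 and 3.82) and the effector *Smad1* (14.9 and 15.8) were close to WT. Under TPM *Id1* (0.81) and *Id4* (0.92) fell short of the call, while *Id3* (1.03) and *Msx2* (1.46) kept it.

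Of 19 WNT pathway genes, *Sp5* was lower and *Lef1* (3.63 and 7.67) and *Cdx1* were higher, where 3.78% and 3.19% of all genes were. The direction of *Sp5* and *Cdx1* was fixed by the limit, which each passed only through the column where it was high. *Axin2*, a feedback inhibitor and common readout of WNT signalling, had 10.8 and 5.73 (−0.90), *Ctnnb1* 270 and 295. The median was −0.08 on day 2 and −0.97 on day 3. Of 7 examined FGF ligands and receptors, *Fgf8* and *Fgf5* were lower and *Fgf15* higher, where 3.78% and 3.19% of all genes were. *Fgf4* (11.1 and 22.2) was just under the call. Among 11 feedback genes of FGF/ERK signalling only *Shisa2* passed the fold (1.29 and 2.70), where 3.19% of all genes were higher. The median of the 11 was 0.38, with *Spry4* at 5.87 and 11.4 and *Dusp6* at 62.7 and 81.1. On day 3 this median was −1.34.

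Naive and later pluripotency genes were looked at separately. None of 10 naive genes was called, with *Esrrb* at 2.01 and 1.47, *Zfp42* at 19.8 and 21.1 and *Klf4* below the examination limit. Of 17 core and formative genes *Sox2* (21.3 and 51.6), *Lef1* and *Foxd3* were higher and *Fgf5* was lower, where 3.19% of all genes were higher. *Pou5f1* (734 and 802) and *Nanog* (120 and 122) were level.

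Immediate early genes, which respond within minutes to serum, stress or handling, were lower in part. Of 21 examined genes 10 were lower and none higher, where 3.78% of all genes were lower, with a median of −0.81. Of these 10 genes 3 passed the limit only through the WT column, which fixed their direction. The 10 genes included *Egr1* (3.97 and 0.345), *Fos* (2.70 and 0.674), *Atf3* (11.3 and 3.43) and *Junb* (11.2 and 4.72). On the study's list of activated genes are 4 of the 10 as well (*Egr1*, *Jdp2*, *Fos* and *Jun*). Against WT of the *Smad4* line 2 of 21 were below −1, where 503 of 11171 examined genes were, and the median of the list was −0.14. In that line *Egr1* was at 0.554, *Fos* at 0.719 and *Junb* at 6.06. In the F1G4 time course *Egr1* was at 0.318 on day 1 and 0.798 on day 3. The same F1G4 WT samples of day 2 gave medians of −0.83 for *T* KO and −1.02 for dKO cells, and on day 3, in other samples, the median in *Eomes* KO cells was −0.55.

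Genes of the Atf4 pathway, which answers a shortage of amino acids, were lower in part. Of 24 genes 8 were lower and none higher, where 3.78% of all genes were lower, with a median of −0.43. Of the 8 lower genes 1 passed the limit only through the WT column. *Atf4* itself had 299 in WT and 143 in KO cells, *Trib3* 13.9 and 3.43, *Ddit3* 15.5 and 4.74 and *Mthfd2* 70.5 and 30.3. Against the other WT line 4 of 24 were below −1, where 503 of 11171 examined genes were. The median of the list was −0.20 against that line, while on day 3 it was −0.77. Stress in the cultures was not tested.

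**Figure D5:**
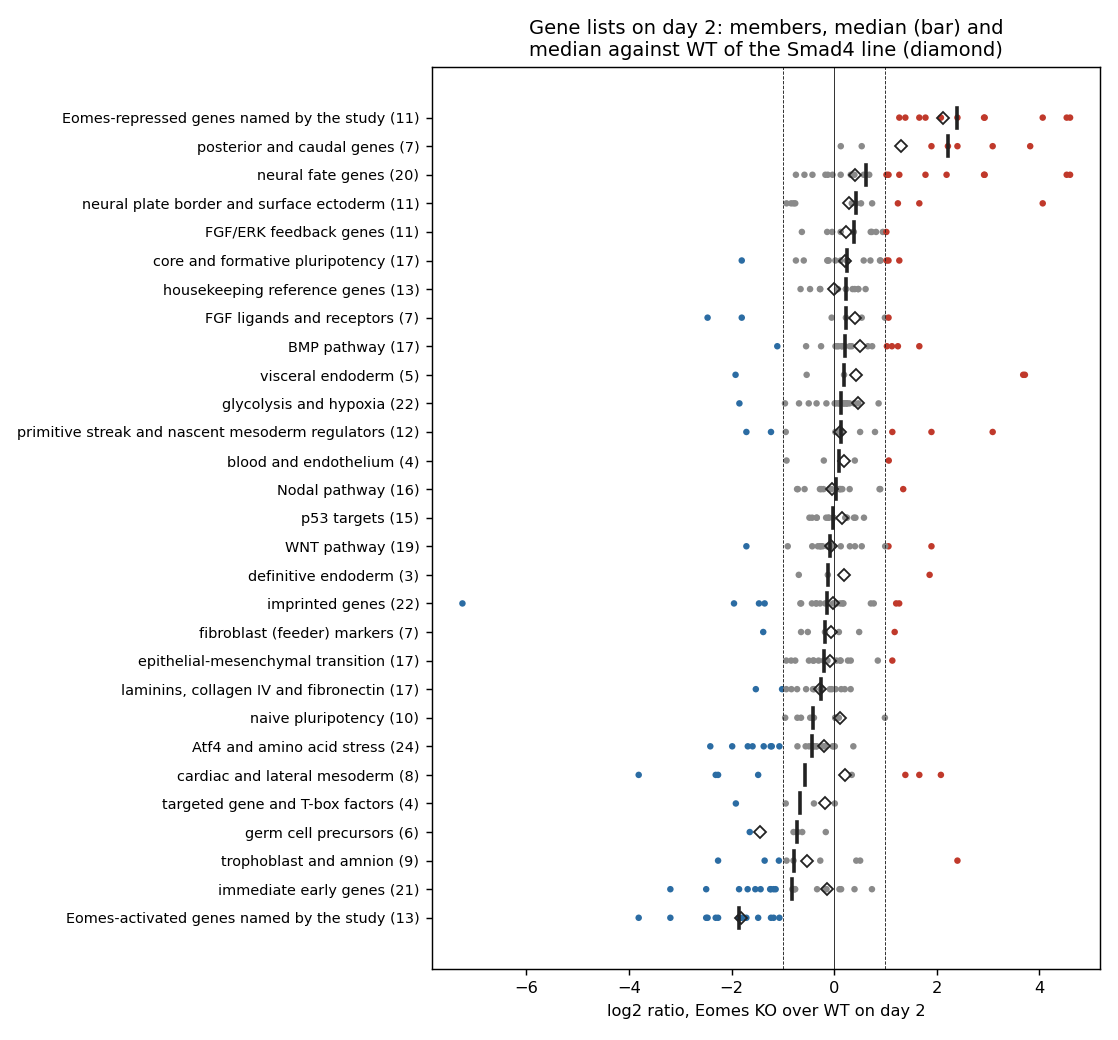
Log2 ratios of *Eomes* KO over WT on day 2 (x axis) of the examined members (dots, number in brackets) of 29 gene lists (y axis, ordered by median), with lower genes in blue and higher genes in red. Black bars mark each median and open diamonds the median against WT of the *Smad4* line; for immediate early genes the bar is at −0.81 and the diamond at −0.14.

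Markers of other cells that a culture might hold were read next. For definitive endoderm 3 of 14 genes were examined, and the summed FPKM of the list was 118 in WT and 368 in KO cells, most of it from *Trh*, which was higher, while *Sox17* (0.0486 and 0.211) and *Foxa2* (0.506 and 0.307) were below the limit. Visceral endoderm genes were at or near 0 in WT cells and between 0.6 and 1.2 in KO cells for *Afp* (0 and 0.609), *Ttr* (0 and 1.19), *Apoa1* (0 and 1.21), *Apob* (0.0347 and 0.729), *Apom* (0.0277 and 0.988) and *Cubn* (0.0192 and 0.970). Of 16 such genes 5 were examined, *Ttr* and *Apoa1* were higher and *Rhox5* was lower, where 3.19% and 3.78% of all genes were. *Ttr* and *Apoa1* passed the limit only through the KO column, which fixed their direction. *Hnf4a* (0 and 0.0804) was near 0. The summed FPKM of the list was 266 in WT and 183 in KO cells, most of it from *Apoe* (247 and 170). The part of such cells in other differences was not tested.

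Of 9 trophoblast and amnion genes *Hand1*, *Ascl2* (2.62 and 0.964) and *Krt7* (10.1 and 4.72) were lower and *Cdx2* higher, with a summed FPKM of 31.6 and 18.8 and *Elf5* at 0 in both, where 3.78% of all genes were lower and 3.19% higher. *Ascl2* and *Cdx2* passed the limit only through the column where they were high, which fixed their direction. Against the other WT line 1 of the 9 was below −1, where 503 of 11171 examined genes were. Among 6 germ cell precursor genes only *Ifitm3* was called, lower at 36.9 and 11.7, where 3.78% of all genes were lower. The median of the 6 was −0.72. Against the other WT line 5 of the 6 were below −1, where 503 of 11171 examined genes were, with a median of −1.45. Of 4 blood and endothelial genes *Lmo2* (0.648 and 1.46) was higher, where 3.19% of all genes were, and *Kdr* was near 0. *Lmo2* passed the limit only through the KO column, which fixed its direction. Fibroblast genes, which would mark feeder cells, summed to 187 and 168, with *Tagln* the most abundant and *Col1a1* at 0.238 and 0.167. Among 7 examined, *Col5a1* was lower (2.30 and 0.819) and *Fbln2* higher (0.606 and 1.50), where 3.78% and 3.19% of all genes were. Both passed the limit only through the column where they were high, which fixed their direction.

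Genes of the epithelial-mesenchymal transition were near WT level. Of 17 only *Zeb2* was called, as higher, where 3.19% of all genes were. *Cdh1* (163 and 149), *Epcam* (232 and 240) and *Vim* (40.8 and 49.1) were level. The epithelial keratins *Krt8* (230 and 129) and *Krt18* (309 and 182) were lower by less than the fold, and *Krt19* (44.4 and 11.3, named after its values were seen) by more. Of 17 genes of laminins, collagen IV, fibronectin and their partners, *Nid1* (3.77 and 1.24) and *Lamb2* (3.40 and 1.63) were lower, where 3.78% of all genes were. Under TPM 4 of the 17 were lower.

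Imprinted genes, which are expressed from 1 parental allele, included the lowest ratio of all examined genes. *H19* had 128 in WT and 0.741 in KO cells, and 208 in the other WT line. Its reciprocally imprinted neighbour *Igf2* had 15.4 and 5.52 on day 2 and 118 and 422 on day 3. *Peg10* (86.5 and 22.3) and *Ascl2* were lower too, and *Phlda2* (31.6 and 73.2) and *Mirg* (7.65 and 18.6) higher. This made 4 lower and 2 higher of 22, where 3.78% and 3.19% of all genes were. Of the 4 lower genes 2 passed the limit only through the WT column. *H19* was also low in *T* KO cells (0.992), which were made separately from F1G4 cells, and in dKO cells (1.16).

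Of 15 p53 targets none was called. Of 22 genes of glycolysis and hypoxia only *Ndrg1* (4.52 and 1.19) was, as lower, where 3.78% of all genes were. Against the other WT line no glycolysis or hypoxia gene was below −1 and 5 were above 1. Of 11171 examined genes 503 and 707 were. The median of the glycolysis and hypoxia list was 0.46 there in place of 0.14. None of 13 housekeeping reference genes was called, but their median was 0.23 and their summed FPKM 3156 and 3635. With the ratios centred this median was 0.24, under TPM 0.01, and against the other WT line −0.002. The FPKM of all genes summed to 459542 in WT and 534043 in KO cells, and rescaling to TPM moved the median of examined genes from −0.01 to −0.24. Under TPM 991 genes were lower and 359 higher. The small positive medians of the streak, Nodal, BMP, glycolysis, visceral endoderm and blood lists, each at most 0.20, turned negative among the same genes under TPM. The counts of the neural and posterior lists became 7 of 20 and 5 of 7 higher. Several lists gained lower calls under TPM. These calls went from 0 to 3 for the neural plate border, from 3 to 5 for trophoblast and amnion and from 2 to 4 for laminins. They went from 0 to 2 for the epithelial-mesenchymal transition and from 0 to 1 for naive pluripotency. Beside *Id1* and *Id4*, the list genes *Lef1* (0.85), *Foxd3* (0.82), *Fgf15* (0.86), *Shisa2* (0.83), *Zeb2* (0.99), *Lmo2* (0.91) and *Phlda2* (0.99) fell short of the higher call under TPM.

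Short RNAs (at most 300 bases) were mostly called higher, though protein-coding genes gave 242 of the 358 higher calls. Of 76 examined 69 (90.8%) were higher and 1 was lower, where 3.19% and 3.78% of all genes were, with a median of 2.52. Those that passed the limit only through the KO column were not counted, so part of this direction may follow from the limit. The authors computed FPKM without Cuffdiff's correction for effective transcript length, and its effect on RNAs this short was not tested. The 3 with the highest KO values were *Rmrp*, the RNA of RNase MRP (7638 and 19377), *Snora74a*, which guides RNA modification (999 and 3381), and *Rprl3*, an RNase P RNA (215 and 1291, with 18.1 in the other WT line). Among 61 small nucleolar RNAs 57 were higher, and their summed FPKM went from 2131 to 8609. Their median was 0.01 in *Eomes* KO cells on day 3, and it was 1.97 in *T* KO and 2.74 in dKO cells on day 2. The summed FPKM of these RNAs in WT of the *Smad4* line, 1976, was close to that of F1G4 WT.

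Other classes moved less. Of 190 long noncoding RNAs 39 (20.5%) were higher and 10 (5.26%) lower, where 3.19% and 3.78% of all genes were, with a median of 0.35. Of 66 histone genes, a family chosen after its values were seen, 15 (22.7%) were higher and 4 (6.06%) lower, against the same shares. On the X chromosome 33 of 391 protein-coding genes (8.44%) were lower and 7 (1.79%) higher, where 3.66% and 2.23% of all protein-coding genes were. Among the lower ones were *Rhox6*, *Rhox9*, *Rhox5*, *Rtl8c* and *Apln*. The 619 protein-coding genes of chromosome 8 stood at a median of 0.17 (log2) in *Eomes* KO cells on both days, and at 0.19 in *T* KO and 0.16 in dKO cells on day 2, while WT of the *Smad4* line over F1G4 WT had −0.41 there. Ratios of chromosome 8 genes against that second WT line therefore contain this offset, and the number of chromosomes in the lines was not tested.

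On day 3, 10912 of the genes examined on day 2 were examined again, in samples that the day 2 columns do not share. Of 390 genes lower on day 2, 121 (31.0%) were lower on day 3, against 7.97% of all genes, and 30 (7.69%) higher, against 5.11%. Of 279 genes higher on day 2, 81 (29.0%) were higher on day 3, against 5.11% of all, and 43 (15.4%) lower, against 7.97%. Shares in the same direction were thus several times those of all genes. Opposite calls were also more frequent than among all genes. Most called genes of day 2 were within the fold on day 3. Calls concentrate in low genes, and these shares were not matched for expression level. *Nefl*, *Nrcam*, *Fgf8*, *Apln* and *Fgf5* belong to the genes lower on both days, and *Sox1* (5.75 in KO, 0.199 in WT on day 3), *Pax6*, *Csn3*, *Irx3* and *Meis2* to those higher on both.

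*Smad4* KO cells, which lack the common partner of Smad signalling and were set against WT cells of their own line, share no sample with the comparison. Of 364 genes lower in *Eomes* KO cells 95 (26.1%) were lower in *Smad4* KO cells, against 2.92% of all genes. Of the same 364 genes 7 (1.92%) were higher there, against 1.7% of all. Of 234 higher genes 46 (19.7%) were higher there, against 1.7% of all, and 28 (12.0%) were lower, against 2.92%. These shares were not matched for expression level either. *Sox1* and *Pax6* were higher in both KO lines, with 3.19 and 4.46 in *Smad4* KO cells. *Cdx2*, *Nkx1-2*, *Msx2* and *Lefty1* were higher in *Eomes* KO and lower in *Smad4* KO cells, the last at −3.23. *Eomes* was at −3.76 in *Smad4* KO cells.

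The normal course of these genes was read from WT cells between days 1 and 3, which uses no day 2 column. Of 423 genes lower in *Eomes* KO cells 190 (44.9%) rose by more than the fold in WT, against 11.5% of all genes. Of the same 423 genes 44 (10.4%) fell, against 7.93% of all. Of 358 higher genes 116 (32.4%) fell, against 7.93% of all, and 65 (18.2%) rose, against 11.5%. The lower genes that WT cells gain in this time included *S100a10* (79.9 on day 1 and 826 on day 3) and *Rtl8c* (0.104 and 18.6). The higher genes that WT cells lose included *Zfp534* (32.7 and 2.26) and *Hormad1* (10.7 and 0.224).

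Side by side with the KO lines that share the WT samples, *Nefl* had 93.1 in WT, 9.30 in *Eomes* KO, 41.9 in *T* KO and 10.0 in dKO cells. *S100a10* had 287, 61.7, 157 and 96.6, and *Lefty1* 17.0, 43.4, 25.6 and 35.0. *Sox1* had a log2 ratio of 3.74 in *T* KO and 4.14 in dKO cells, and *Hoxb2* of 2.99 and 4.54. *Trh* had 347 in *Eomes* KO, 345 in dKO and 140 in *T* KO cells. For *Axin2* the *T* KO value of 22.5 lay above WT and the *Eomes* KO and dKO values of 5.73 and 5.09 below.

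T-box proteins bind variants of the half-site TCACACCT. Promoters (250 bases before to 50 after the start, RefSeq, GRCm38.p6) were at hand for 8992 examined genes, and 84 (0.934%) held these letters on either strand, as did 1.28% of all promoters in the table. Of 314 lower genes 7 (2.23%) and of 230 higher genes 3 (1.30%) held them. The windows of *Atf4* (chr15:80254973-80254998) and *Plac8* (chr5:100572438-100572455) are shown on the strand of each gene, where the match is to the reverse complement, in capitals.
Atf4: agagatggcAGGTGTGAcagtctggc
Plac8: aAGGTGTGAgactcggag
The counts are small, and a match is a stretch of letters, not a bound site.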

How the data were processed

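RNA-seq of WT and *Eomes* KO cells on day 2 was used, with 5 further tables as context. The authors trimmed reads with cutadapt 2.9, aligned them with HISAT2 2.1.0 to mm10, sorted them with SAMtools 1.9 and computed FPKM with Cuffdiff 2.2.1 on RefSeq genes, per the paper's methods and the submitters' processing notes. The deposited FPKM tables hold 1 pooled value per gene and group, so depth, SD and tests were out of reach. The remaining 3 tables were not used here.

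Genes with FPKM above 1 in either column were examined, and log2 ratios with a pseudocount of 0.1 were called beyond −1 or 1. The members and the 29 gene lists were chosen with earlier results of these data known. Named genes are *Eomes*, *T*, list members, the 15 lowest and 15 highest ratios of protein-coding genes (above 0 in both columns and reaching an FPKM of 5 in one), and the 3 short RNAs with the highest KO value. Genes named after their values were seen are marked, and a few genes that the rule covers are not reported here. Of the symbols 24448 were matched to GRCm38.p6 and 90 were not. For 26 genes the time course gave no value by name. Its F1G4 WT values on day 2 were a median of 1.009 times those used here, and WT values beside *T* KO cells 1.041 times. Values of the *Smad4* line and of day 3 come from tables normalized separately. Alternatives were other pseudocounts, FPKM limits, scalings, gene classes, WT columns and folds. The call step was run on simulated columns with known changes well past the fold and less noise than these data. Its outcome was fixed by those settings, so it says nothing about false calls here. Python 3.11.15, numpy 2.4.6, pandas 2.3.3 and matplotlib 3.10.9 were used.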

Additional observations from a re-analysis of the deposited data

Results flagged for a closer look

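The median log2 ratio of posterior and caudal genes had opposite signs on the days compared, which is why it is listed here. In *Eomes* KO cells it was 2.22 on day 2, or 1.31 against the other WT line, and −2.11 on day 3. Of the 7 genes 5 were called higher on day 2, and 4 of these passed the FPKM limit only through the KO column, which fixed their direction on that day. Among the 5 called genes *Cdx2* had 2.40 on day 2 and −3.83 on day 3, and *Nkx1-2* had 2.22 and −1.96. *Gbx2* had 2.93 on day 2 and −1.33 on day 3, *Dusp5*, a phosphatase of ERK, 1.82 and −2.35, and *Tcf15* 1.77 and −2.48. *Hand1* was lower on day 2, at −2.26, and higher on day 3, at 1.55, as was *Igf2*, at −1.47 and 1.83, and 30 of 390 lower genes (7.69%) were higher on day 3, where 5.11% of all genes were. Each column holds a single pooled value, so these differences between days were not tested.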

How the results depend on the processing

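Counts of called genes depended on the pseudocount and on the FPKM limit, as most calls lay in low genes. Lower and higher genes numbered 168 and 208 with a pseudocount of 1, 860 and 817 without an FPKM limit, 158 and 172 above an FPKM of 5, and 56 and 106 beyond a log2 ratio of 2. Under TPM there were 991 lower and 359 higher genes, and with protein-coding genes scaled to the same total, an alternative added after the data were seen, 548 and 272. Against WT of the *Smad4* line, also added later, they were 503 and 707. Higher genes made up 45.8% of calls, 26.6% under TPM, 33.2% with the protein-coding total and 58.4% against the other WT line. Leaving out the pseudocount, centring the ratios, keeping protein-coding genes and taking the WT column of the time course kept both counts within 1.5 times.

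Genes lower on both days numbered 60 with a pseudocount of 1, 211 without a limit and 58 above an FPKM of 5. Those higher on both numbered 35, 213 and 23 in the same order, 130 under TPM and 44 for protein-coding genes. Of 55 single genes none changed sign after being called. With a pseudocount of 1 *Sp5*, *Tgfb2*, *Mixl1* and *Tll1* lost the call, and against the other WT line 9 genes did, among them *Egr1*, *Fos*, *Jun*, *Atf4*, *Hand1* and *Sox2*. The median of visceral endoderm genes, 0.19, ran from −1.23 above an FPKM of 5 to 3.33 under TPM. No paired analysis was possible because each column is 1 pooled value, and no replicate could be left out. The KO cells come from picked clones, and a difference between clones cannot be told apart from the deletion.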
